A study of Homo sapiens with 8 samples.

Results

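Cytosolic ribosomal protein genes, which encode the protein parts of the 40S and 60S subunits of the ribosome, were examined in MEG-01 cells after PMA and Ceefourin 2. Members were the protein-coding genes whose symbol is RPL or RPS with a number, plus RPSA, RPLP0, RPLP1 and RPLP2. Symbols that contain a Y were left out. The rule used no measured value and found 83 of 60754 genes. Of these, 76 were core proteins (31 of the small and 45 of the large subunit). The other 7 were paralogs, that is, copies or relatives of a core gene (RPL3L, RPL7L1, RPL10L, RPL22L1, RPL26L1, RPL39L and RPS27L). A filter on low counts kept 17314 genes, 81 of them members. RPL10L had 0 counts in all 8 libraries and RPL3L had 1 count in 1 library (Ceefourin 2 replicate 2), so neither was tested. The members lay on 21 chromosomes, with at most 12 on any of them (chromosome 19).

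MEG-01 is an established human megakaryoblast line. Its mRNA was sequenced in 8 libraries, 2 for each treatment. These were PMA (100 nM) plus Ceefourin 2 (20 µM) for 48 h, PMA (100 nM) for 48 h, Ceefourin 2 for 48 h, and no treatment. PMA is a phorbol ester, an activator of protein kinase C, and Ceefourin 2 blocks the exporter ABCC4. The sources used here give neither the dose of Ceefourin 2 used alone nor any vehicle. The labels do not say that replicates came from separate cultures, so p-values measure only the spread between these libraries, which may be technical. All cells were of 1 line.

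Ribosomal proteins are made in near-equal numbers and assembled with ribosomal RNA in the nucleolus. In vertebrates their mRNAs typically start within a short stretch of C and T called a 5′ terminal oligopyrimidine (TOP) motif, through which mTORC1 controls their translation. Their genes are among the most highly expressed of growing cells, and inherited heterozygous loss of several of them causes Diamond-Blackfan anaemia, a failure of red cell precursors.

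Start sites were compared between the core genes and the few paralogs with an annotated start. In the RefSeq starts used here (build GRCh38.p14), 66 of the 83 members had one. The 17 others included RPL39L and RPS2, the paralog and the core gene that fell most after PMA, so neither has a window here. An unbroken run of C and T of at least 5 bases that covered the start base was found on the gene's own strand in 49 of 61 core genes (80.3%), in 1 of 5 paralogs (20%) and in 11% of 14906 protein-coding genes. The median run was 11 bases in the core genes, and 0 bases over all coding genes. Where a gene had several annotated starts, the start with the longest run was used, for members and for all coding genes. These shares and medians are therefore upper values, which can depend on how many starts a gene has. Windows of 45 bases are given for members on which the results turn, 25 bases before the start and 20 from it, 5′ to 3′, with the run that covers the start in capitals:
RPSA: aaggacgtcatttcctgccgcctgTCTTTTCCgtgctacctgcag
RPL14: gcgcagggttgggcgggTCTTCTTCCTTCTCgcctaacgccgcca
RPS27: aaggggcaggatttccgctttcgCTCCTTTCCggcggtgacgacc
RPS27A: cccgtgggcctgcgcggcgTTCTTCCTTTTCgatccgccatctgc
RPS4X: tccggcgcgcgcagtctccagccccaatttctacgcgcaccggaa
RPL26: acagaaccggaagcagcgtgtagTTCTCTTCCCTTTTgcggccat
RPL26L1: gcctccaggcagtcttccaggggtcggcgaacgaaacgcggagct
RPL22: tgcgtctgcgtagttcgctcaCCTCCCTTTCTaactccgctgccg
RPL22L1: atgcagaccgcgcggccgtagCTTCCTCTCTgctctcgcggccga
RPL7L1: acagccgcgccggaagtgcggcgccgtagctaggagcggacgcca
RPS27L: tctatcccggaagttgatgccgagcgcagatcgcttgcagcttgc
These windows are RPSA at chr3:39406695-39406739 (plus strand), RPL14 at chr3:40457314-40457358 (plus strand), RPS27 at chr1:153990737-153990781 (plus strand) and RPS27A at chr2:55232663-55232707 (plus strand). The others are RPS4X at chrX:72277229-72277273 (minus strand), RPL26 at chr17:8383174-8383218 (minus strand), RPL26L1 at chr5:172958704-172958748 (plus strand), RPL22 at chr1:6199576-6199620 (minus strand), RPL22L1 at chr3:170870176-170870220 (minus strand), RPL7L1 at chr6:42879591-42879635 (plus strand) and RPS27L at chr15:63157458-63157502 (minus strand). RPS4X and the paralogs RPL26L1, RPL7L1 and RPS27L had no run at the start used, whereas RPL22 and RPL22L1 both had one. The 49 core genes with a run had a median log2 fold change of -0.04 after PMA, and the 12 without had -0.13, a description over genes that share the same libraries. A run is a match of letters at an annotated start and was not set against transcript ends in these cells.

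Libraries held between 44430292 and 89950886 expected counts. Mitochondrially encoded genes took 15.5% and 13.9% of TPM (a transcript's abundance corrected for gene length, with the same total in every library) in replicate 1 of PMA and of PMA plus Ceefourin 2, and between 4.69% and 7.99% in the other 6 libraries. All 9 tested megakaryocyte markers of a list of 10 rose after PMA, and PF4 had 3 counts or fewer over the 8 libraries. Summed, the megakaryocyte list held between 1434 and 1569 TPM in libraries with PMA, against 614 to 718 TPM without. Of this, ITGA2B held 717 to 825 TPM, against 296 to 396 TPM. Summed levels of the erythroid, monocyte, endothelial and fibroblast lists moved with PMA too, each carried mainly by 1 gene. The 10 erythroid markers summed to between 26140 and 38180 TPM with PMA, against 4660 to 10570 TPM without, of which HBG2 held 25387 to 37148 TPM, against 3520 to 8309 TPM. The 8 monocyte markers summed to between 380 and 464 TPM, against 178 to 220 TPM, of which CD68 held 358 to 440 TPM, against 145 to 167 TPM. The 5 endothelial markers summed to between 196 and 246 TPM, against 67.2 to 90.01 TPM, of which PECAM1 held 184 to 236 TPM, against 39.1 to 75.1 TPM. The 5 fibroblast markers summed to between 9.4 and 18.8 TPM, against 0.1 to 0.48 TPM, nearly all of it COL1A1 with PMA. By gene, the erythroid, monocyte and endothelial lists went both ways after PMA against untreated, where 27.9% of all tested genes rose and 25.7% fell. Of 10 erythroid markers 3 rose and 6 fell. Of 6 tested monocyte markers 3 rose and 2 fell (log2 fold changes of -3.90 for ITGAM and -0.40 for LYZ). Of 5 endothelial markers 3 rose and 1 fell (-0.50 for KDR), and of 2 tested fibroblast markers 1 rose and 0 fell. The 6 lymphoid markers summed to between 0.74 and 1.44 TPM, against 1.35 to 2.36 TPM, and CD3E, MS4A1 and the monocyte marker CD163 each had 3 counts or fewer over the 8 libraries. The part of these genes and of the mitochondrial share in the results on ribosomal proteins was not tested, except where values without the 2 libraries of high mitochondrial share are given.

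Ribosomal protein genes took a smaller share of TPM in the libraries with PMA. The share was 18.5% and 20.9% in PMA plus Ceefourin 2 replicates 1 and 2, 16.8% and 20.0% in PMA, 21.6% and 22.7% in Ceefourin 2, and 21.9% and 23.3% in untreated cells. All 4 libraries with PMA lay below all 4 without. As a share of expected counts the libraries overlapped, at 7.13% and 8.27% in PMA plus Ceefourin 2, 6.61% and 7.88% in PMA, 7.96% and 8.80% in Ceefourin 2, and 8.06% and 9.30% in untreated cells: PMA plus Ceefourin 2 replicate 2 lay above replicate 1 of Ceefourin 2 and of untreated cells. With mitochondrially encoded genes taken out of the TPM total, the shares were 21.4% and 22.7% in PMA plus Ceefourin 2, 19.9% and 21.6% in PMA, 22.7% and 24.1% in Ceefourin 2, and 22.9% and 24.99% in untreated cells. The highest library with PMA then lay at 22.68%, just under the lowest without at 22.73%. The shares of all TPM averaged 19.7 ± 1.71% in PMA plus Ceefourin 2, 18.4 ± 2.21% in PMA, 22.1 ± 0.806% in Ceefourin 2 and 22.6 ± 1.03% in untreated cells (SD, n = 2 each). In bulk RNA, fewer cells of a type and less RNA per cell cannot be told apart.

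**Figure D1:**
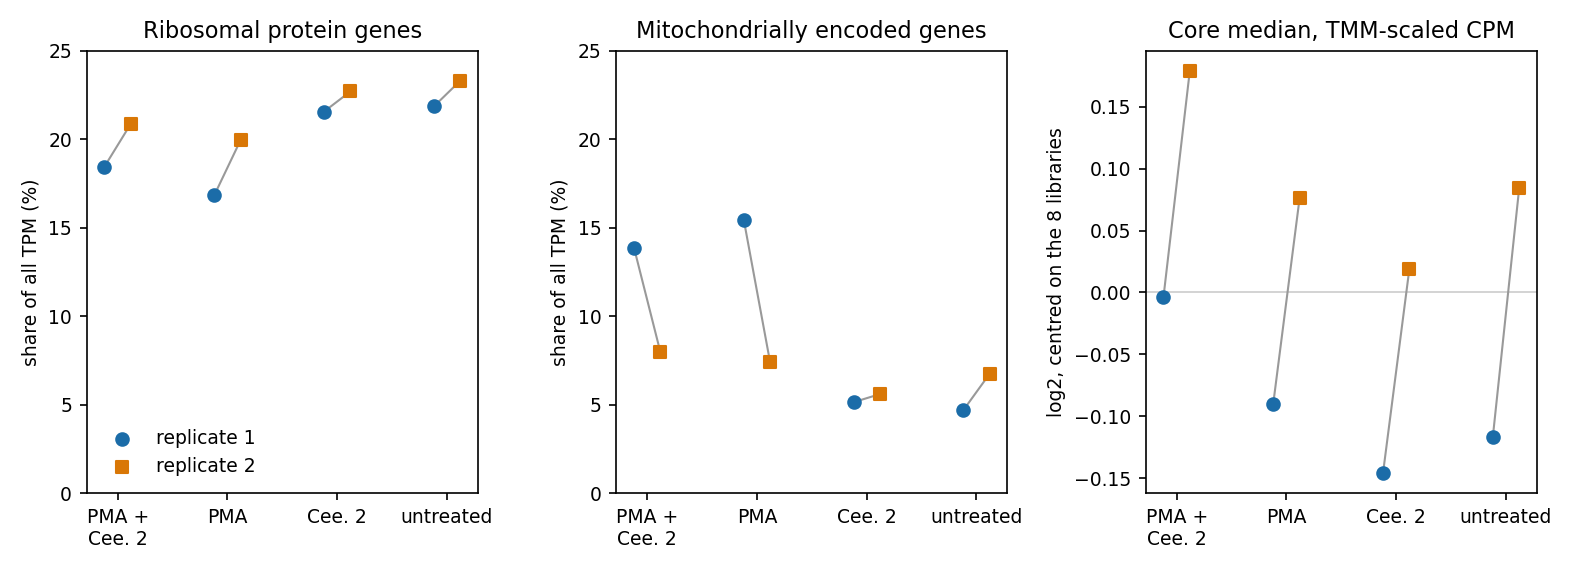
Share of all TPM taken by the 83 ribosomal protein genes (left, %) and by mitochondrially encoded genes (middle, %), and the median log2 CPM of the 76 core genes after TMM scaling, centred on the 8 libraries (right), for each library by group. Circles are replicate 1 and squares replicate 2; Cee. 2 is Ceefourin 2, and grey lines join libraries of 1 group. The member share lies between 16.8% and 20.9% with PMA, against 21.6% to 23.3% without, while on the right replicate 2 lies above replicate 1 in all 4 groups.

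A second difference ran through the members, between the replicate numbers. How many of all tested genes showed it was not counted, so it is not shown to be particular to the members. On the scale of CPM (counts brought to a common library total after TMM scaling, which aligns the libraries over most genes), replicate 2 was above replicate 1 in 76 of 76 core genes in PMA plus Ceefourin 2, in PMA and in untreated cells, and in 73 of 76 in Ceefourin 2. The difference in the core median was 0.18, 0.17, 0.20 and 0.17 on the log2 scale in PMA plus Ceefourin 2, PMA, untreated and Ceefourin 2 cells. It was larger than the core median of any of the 4 treatment comparisons, at most 0.12 in size on this scale. Replicate deviations correlated between all pairs of groups, so results with the replicate number as a term in the model, here the replicate block, are given beside the main ones.

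Within the family, levels differed less between groups than between genes. In untreated cells the core genes ran from 780 ± 38.3 TPM for RPL22 to 6935 ± 522 TPM for RPL13A (SD, n = 2), an 8.9-fold range with a median of 2650 TPM. RPS18 was also among the 3 most abundant (6179 ± 577 TPM), and its libraries overlapped those of RPL13A. The least abundant after RPL22 were RPS26 (858 ± 16.7 TPM) and RPL23A (1022 ± 38.0 TPM). In PMA cells RPL22 was again the lowest, at 629 ± 75.9 TPM. The order of the 76 levels correlated with that in untreated cells at a Spearman rho of 0.95 for both PMA plus Ceefourin 2 and PMA, and 0.99 for Ceefourin 2, as a description across genes of shared length and mapping. The 5 tested paralogs lay far below, from RPL39L at 2.13 and 2.52 TPM in PMA, against 11.8 and 12.3 TPM in untreated cells, to RPL7L1 at 87.7 and 93.8 TPM, against 152 and 153 TPM.

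**Figure D2:**
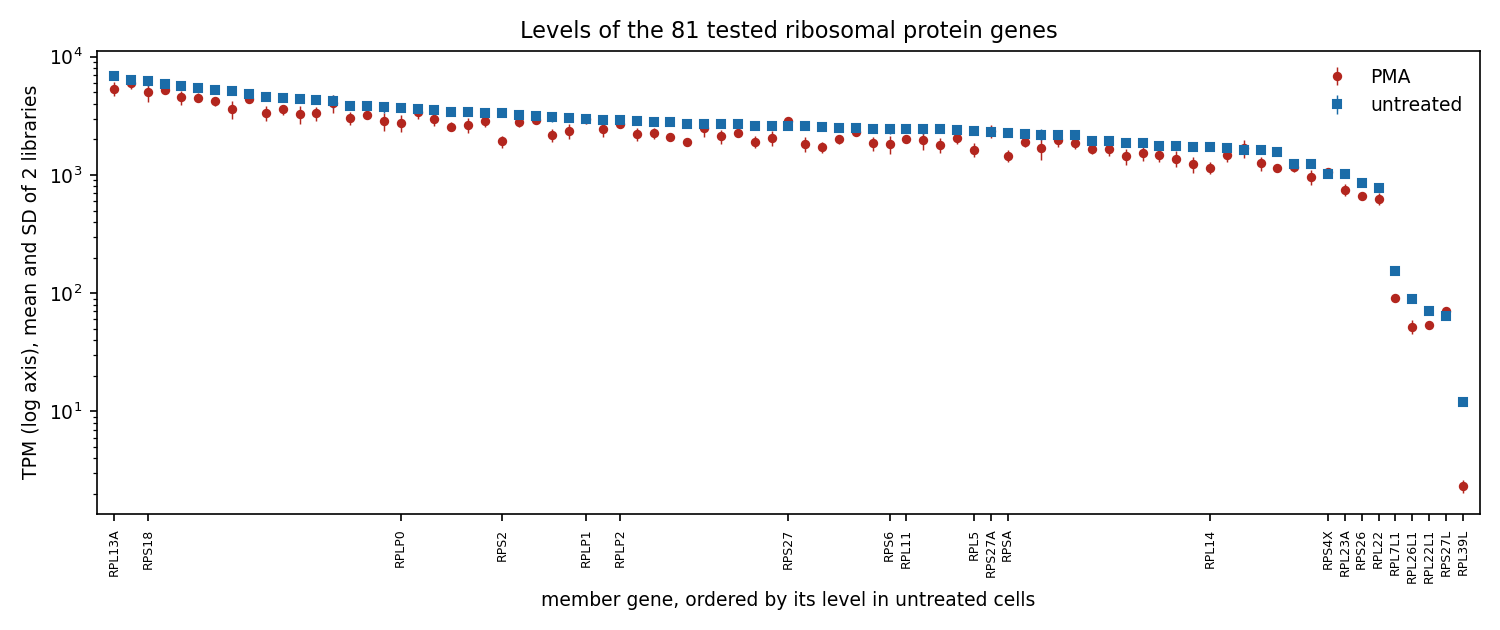
TPM on a log axis (mean and SD of 2 libraries) of the 81 tested ribosomal protein genes in PMA (red circles) and untreated (blue squares) cells, ordered by the untreated level, with names for some of the genes described in the text. The 76 core genes lie between 629 and 6935 TPM and the 5 paralogs at the right lie below all of them.

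PMA was given to drive megakaryocytic differentiation, and in the main test few ribosomal protein genes changed with it beyond the spread of the libraries. Against untreated cells, 2 members rose and 6 fell in edgeR's quasi-likelihood test at a Benjamini-Hochberg adjusted p below 0.05. That was 9.88% of 81 members, where 53.6% of all tested genes were called (27.9% higher and 25.7% lower). Among the 76 core genes 1 rose and 3 fell, and their median log2 fold change was -0.08, against 0.00 for all tested genes. On the TPM scale that median was -0.32, where the median of all genes was -0.14, and 65 of 76 core genes were lower in both PMA libraries than in both untreated ones, with 1 higher, where 48.6% of all tested genes were lower in this way. On that scale limma called 0 members higher and 31 lower, where 52.1% of all genes were called (18.5% higher and 33.7% lower). With library sizes alone edgeR called 0 and 24, where 56.4% were (22.1% higher and 34.3% lower). With the replicate block 9 members rose and 29 fell, where 64.4% of all genes were called (32.7% higher and 31.7% lower). The core median turned to 0.03 without PMA replicate 1 and to 0.04 without untreated replicate 2. Without both libraries of high mitochondrial share it was 0.03.

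The paralogs held the largest falls. RPL39L, a copy of RPL39 known from testis and some tumours (chr3:187120948-187180908, minus strand, in GENCODE of GRCh38), had 1.05 and 1.23 CPM in PMA cells, against 4.61 and 5.29 CPM in untreated cells. Both PMA libraries lay far below both untreated ones. Its log2 fold change was -2.12 ± 0.19 (SE) with an adjusted p of 5.3e-05, and the call held in all 8 fits that left out 1 library. RPL7L1, a relative of RPL7 that binds pre-ribosomes, had 264 and 280 CPM in PMA cells, against 379 and 407 CPM in untreated cells. It fell by 0.53 on the log2 scale (SE 0.09, adjusted p = 0.0015), again in all 8 such fits. RPL26L1, which is nearly identical to RPL26, had 19.6 and 22.4 CPM in PMA cells, against 29.4 and 32.1 CPM in untreated cells, and fell by 0.55 (SE 0.13, adjusted p = 0.007). Its call was lost without PMA replicate 1 (adjusted p = 0.059). RPS27L, a copy of RPS27 that p53 induces, went the other way with 33.8 and 33.2 CPM in PMA cells, against 25.5 and 25.1 CPM in untreated cells. Its log2 fold change was 0.40 ± 0.11 (adjusted p = 0.015), lost when any of the 4 compared libraries was left out (adjusted p between 0.055 and 0.069) and 0.14 on the TPM scale (adjusted p = 0.35). RPL22L1 had 19.9 and 19.2 CPM in PMA cells, against 20.7 and 23.0 CPM in untreated cells, and did not pass the test (log2 fold change -0.16 ± 0.13, adjusted p = 0.32).

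Set against their core partners, the 3 falling paralogs lost ground in every library with PMA. The ratio of RPL39L to RPL39 in TPM was 0.124% and 0.118% in PMA plus Ceefourin 2, 0.0964% and 0.0932% in PMA, 0.556% and 0.557% in Ceefourin 2, and 0.408% and 0.408% in untreated cells. RPL26L1 stood at 2.54% and 2.61% of RPL26 in PMA plus Ceefourin 2, 3.05% and 3.19% in PMA, 4.98% and 4.73% in Ceefourin 2, and 4.49% and 4.59% in untreated cells. RPL7L1 stood at between 2.38% and 2.82% of RPL7 in the libraries with PMA, against 4.11% to 4.44% without. In each pair the 4 libraries with PMA lay below the 4 without. The log2 ratios differed by -2.15, -0.73 and -0.72, each with a two-sided exact permutation p of 0.0286, the smallest that 70 splits allow (0.0477 after Benjamini-Hochberg adjustment over 5 pairs). The ratios of RPL22L1 to RPL22 (log2 difference -0.09, exact permutation p = 0.257, adjusted p = 0.321) and of RPS27L to RPS27 (0.03, p = 0.857) did not pass. These ratios were added after the falls had been seen in the same libraries, so their p-values give no separate support. The splits also ignored which libraries had Ceefourin 2 and the replicate numbers. Expected counts of RPL7L1 and RPL26L1 were not whole in any library, which RSEM gives when reads fit several genes. Reads shared with other genes therefore leave the levels of these 2 paralogs uncertain. The expected counts of RPL22L1 and RPS27L were whole in all 8 libraries.

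Of the core genes, 3 fell after PMA in the main test. RPS2, a small subunit protein beside the mRNA entry channel, had 1125 and 1309 CPM in PMA cells, against 1607 and 1913 CPM in untreated cells (log2 fold change -0.53 ± 0.14, adjusted p = 0.012). RPSA, the small subunit protein also known as the laminin receptor, had 1011 and 1178 CPM, against 1336 and 1553 CPM in untreated cells (-0.40 ± 0.13, adjusted p = 0.031). RPL14, of the large subunit, had 426 and 470 CPM, against 541 and 611 CPM in untreated cells (-0.36 ± 0.11, adjusted p = 0.024). In all 3 genes both PMA libraries lay below both untreated libraries. The 3 calls were lost without PMA replicate 1 (adjusted p of 0.081 for RPS2, 0.18 for RPSA and 0.14 for RPL14) and without untreated replicate 2 (0.064, 0.15 and 0.12, in the same order). With the replicate block they held, at adjusted p-values of 2.9e-05, 0.00019 and 0.00045.

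RPS27, a zinc finger protein of the small subunit, was the only core gene that rose in the main test. It had 433 and 470 CPM in PMA cells, against 323 and 367 CPM in untreated cells, without overlap (log2 fold change 0.39 ± 0.10, adjusted p = 0.011). Leaving out untreated replicate 1 ended the call (adjusted p = 0.054), as did leaving out PMA replicate 2 (0.068), and on the TPM scale the log2 fold change was 0.14 (adjusted p = 0.30). RPL35, with a log2 fold change of -0.32 ± 0.13, and RPL24, at 0.31 ± 0.15, completed the 10 largest changes. Neither was called in the main test (adjusted p = 0.075 and 0.12), and both were with the block (0.0012 and 0.0026).

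Members with known roles of their own were mostly not called. The stalk proteins, which recruit elongation factors to the ribosome, had log2 fold changes of -0.20 ± 0.16 for RPLP0, 0.24 ± 0.11 for RPLP1 and 0.13 ± 0.11 for RPLP2, none of them called. With the block RPLP0 fell (adjusted p = 0.0044) and RPLP1 rose (0.002), while on the TPM scale RPLP1 and RPLP2 had negative values of -0.03 and -0.11. RPL5 and RPL11 bind 5S ribosomal RNA and, when free, MDM2. RPL5 had 1049 and 1263 CPM in PMA cells, against 1315 and 1510 CPM in untreated cells, not called in the main test (-0.29 ± 0.13, adjusted p = 0.09) but called with the block (0.0015). RPL11, at 831 and 883 CPM, against 823 and 939 CPM in untreated cells, overlapped between the groups. RPS6, the substrate of S6 kinase, had 1245 and 1601 CPM, against 1437 and 1765 CPM in untreated cells, with overlap and a log2 fold change of -0.17 ± 0.17. Of 20 genes mutated in Diamond-Blackfan anaemia 1 rose and 0 fell (RPS27, above), and of 11 linked to MDM2 binding 2 rose and 0 fell (RPS27 and RPS27L), where 53.6% of all genes were called. With the block 1 rose and 7 fell of the 20, and 2 rose and 5 fell of the 11. In that fit 64.4% of all genes were called (32.7% higher and 31.7% lower).

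With Ceefourin 2 in both arms, the balance of higher and lower calls depended on the scaling. In TMM-scaled counts, PMA plus Ceefourin 2 against Ceefourin 2 gave 11 members that rose and 3 that fell, 17.3% of 81, where 53.5% of all genes were called (28.0% higher and 25.6% lower). These were 10 core genes that rose, 0 that fell, and the same 4 paralogs as after PMA alone, in the same directions. The core median was 0.10 in TMM-scaled counts, against 0.02 for all genes, but turned to -0.19 in TPM and -0.11 with library sizes alone, where the medians of all genes were -0.15 and -0.19. The balance of calls turned with it. On TPM limma called 2 members higher and 16 lower, where 52.0% of all genes were called (17.4% higher and 34.6% lower). With library sizes alone edgeR called 2 and 9, where 56.0% were (21.7% higher and 34.3% lower). With the block 32 members rose and 8 fell, where 63.6% of all genes were called (32.7% higher and 30.9% lower). The core median was -0.01 without PMA plus Ceefourin 2 replicate 2 and 0.02 without Ceefourin 2 replicate 1. It was 0.17 without Ceefourin 2 replicate 2.

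RPS27 had the largest rise among the core genes here, with 540 and 581 CPM in PMA plus Ceefourin 2, against 349 and 377 CPM in Ceefourin 2 cells (0.63 ± 0.10, adjusted p = 0.001). RPS4X, the X-linked RPS4, had 1155 and 1390 CPM, against 833 and 928 CPM in Ceefourin 2 cells (0.53 ± 0.13, adjusted p = 0.0087). RPS27A, which is made as a fusion with ubiquitin, had 982 and 1124 CPM, against 784 and 746 CPM in Ceefourin 2 cells (0.46 ± 0.11, adjusted p = 0.0079). In each of these 3 genes both libraries with PMA lay above both without. Smaller rises were those of RPL36A (0.36), RPL31 (0.35), RPLP1 (0.31), RPL34 (0.31), RPL26 (0.30) and RPL37 (0.28), and these 6 calls were lost without PMA plus Ceefourin 2 replicate 2 (adjusted p between 0.11 and 0.28) and without Ceefourin 2 replicate 1 (between 0.094 and 0.19). The call of RPS4X was lost without PMA plus Ceefourin 2 replicate 2 (adjusted p = 0.059) and without Ceefourin 2 replicate 1 (0.05), and that of RPS27A without PMA plus Ceefourin 2 replicate 2 (0.053). RPS27 kept its call in all 8 fits and on the TPM scale, where its value was 0.35. On that scale RPS4X, RPS27A and these 6 genes had log2 fold changes between 0.00 and 0.19 and were not called.

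The paralogs repeated their changes in these libraries. RPL39L had 1.503 and 1.72 CPM in PMA plus Ceefourin 2, against 5.94 and 6.11 CPM in Ceefourin 2 cells (-1.90 ± 0.18, adjusted p = 7.6e-05). RPL7L1 had 248 and 262 CPM, against 354 and 392 CPM in Ceefourin 2 cells (-0.55 ± 0.09, adjusted p = 0.0012), and RPL26L1 had 19.2 and 23.3 CPM, against 31.2 and 30.5 CPM in Ceefourin 2 cells (-0.54 ± 0.13, adjusted p = 0.0076, but 0.058 without PMA plus Ceefourin 2 replicate 1). RPS27L had 35.5 and 38.8 CPM, against 24.5 and 20.8 CPM in Ceefourin 2 cells (0.72 ± 0.11, adjusted p = 0.00091). RPS2, RPSA and RPL14, which fell after PMA alone, had values of -0.28, -0.32 and -0.24 here and were not called, though all 3 were with the block.

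**Figure D3:**
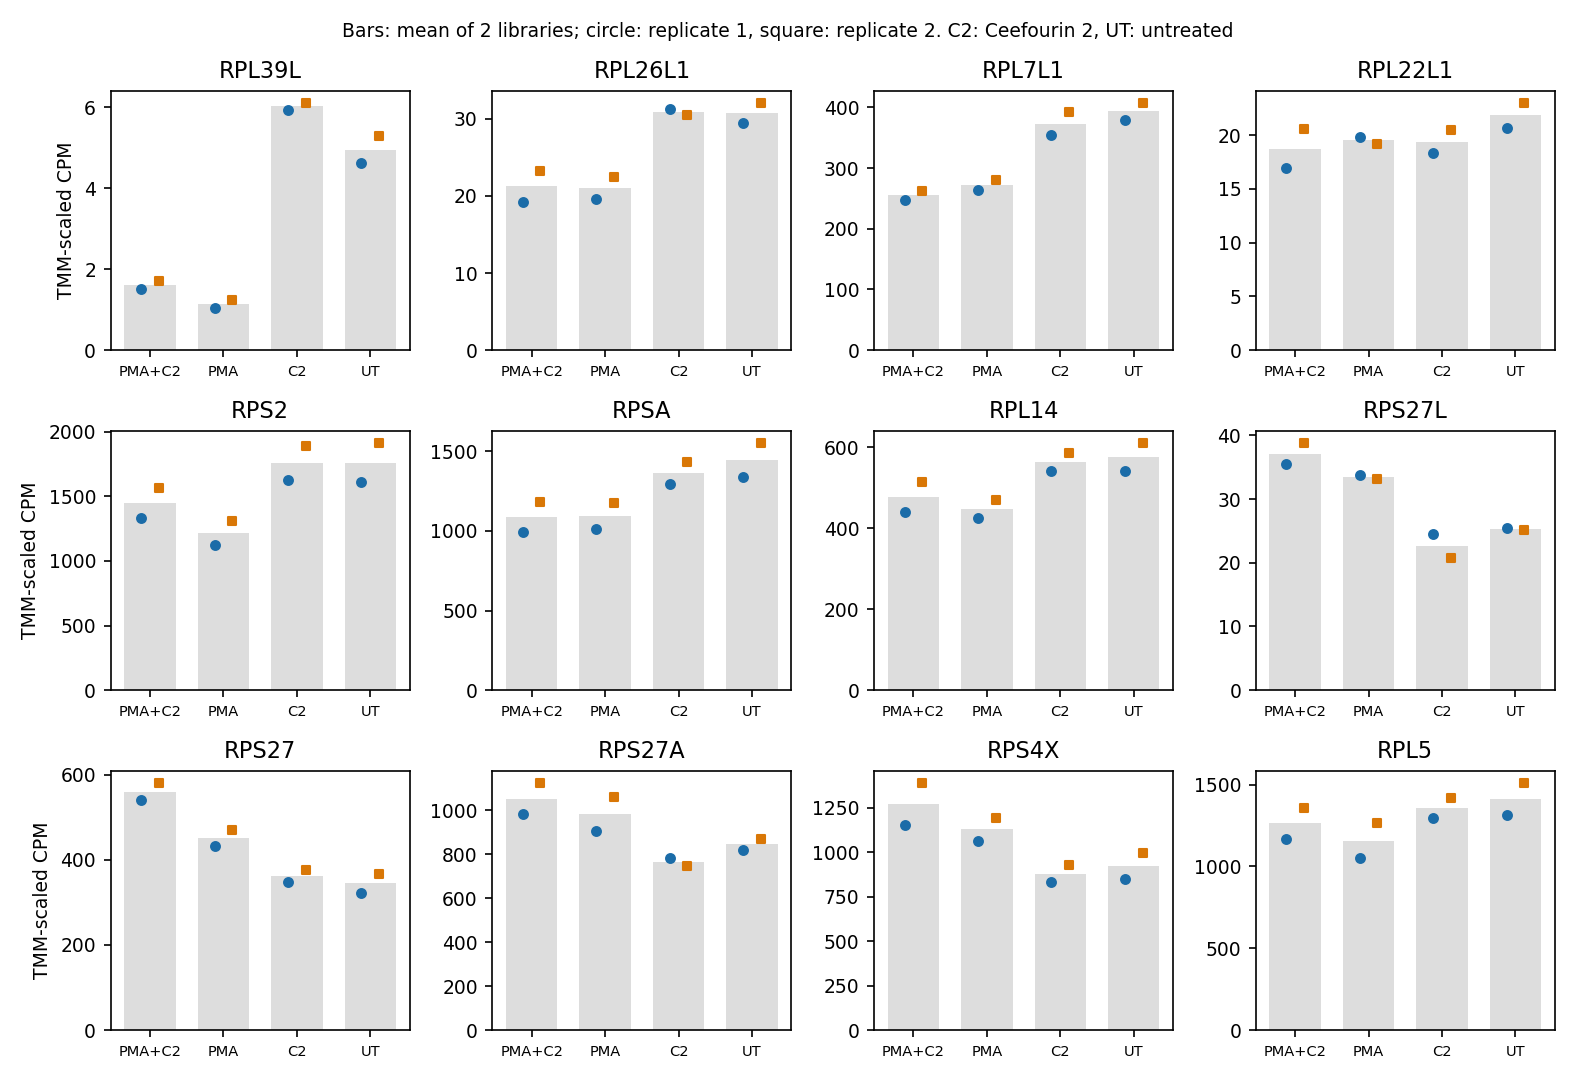
TMM-scaled CPM of 12 members in each library (circle replicate 1, square replicate 2) with the group mean as a bar, for PMA plus Ceefourin 2 (PMA+C2), PMA, Ceefourin 2 (C2) and untreated (UT) cells. RPL39L lies between 1.05 and 1.72 CPM with PMA, against 4.61 to 6.11 CPM without, and RPS27 lies between 433 and 581 CPM with PMA, against 323 to 377 CPM without.

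Across the 76 core genes, the PMA effect in the presence of Ceefourin 2 and the PMA effect without it, which share no library, correlated at a Pearson r of 0.90 and a Spearman rho of 0.88. All 17314 genes gave 0.90 by either measure, and 46 of 76 core genes had the same sign. Genes that share length, mapping and replicate order are not independent, so the correlation is a description. Relative to the core median of each library, which takes out any shift of the whole family, 12 core genes were higher and 31 lower in all 4 libraries with PMA than in all 4 without. That was 56.6% of 76, where 53.8% of 16641 genes above 0 in every library did not overlap on the same measure. The log2 ratio of each member to the core median was averaged over libraries with PMA and over those without. By difference of these means it fell most for RPL39L (-2.09), RPL26L1 (-0.63), RPL7L1 (-0.62), RPS2 (-0.49), RPSA (-0.44) and RPL14 (-0.38). It rose most for RPS27L (0.48), RPS27 (0.43), RPS4X (0.33) and RPS27A (0.26).

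**Figure D4:**
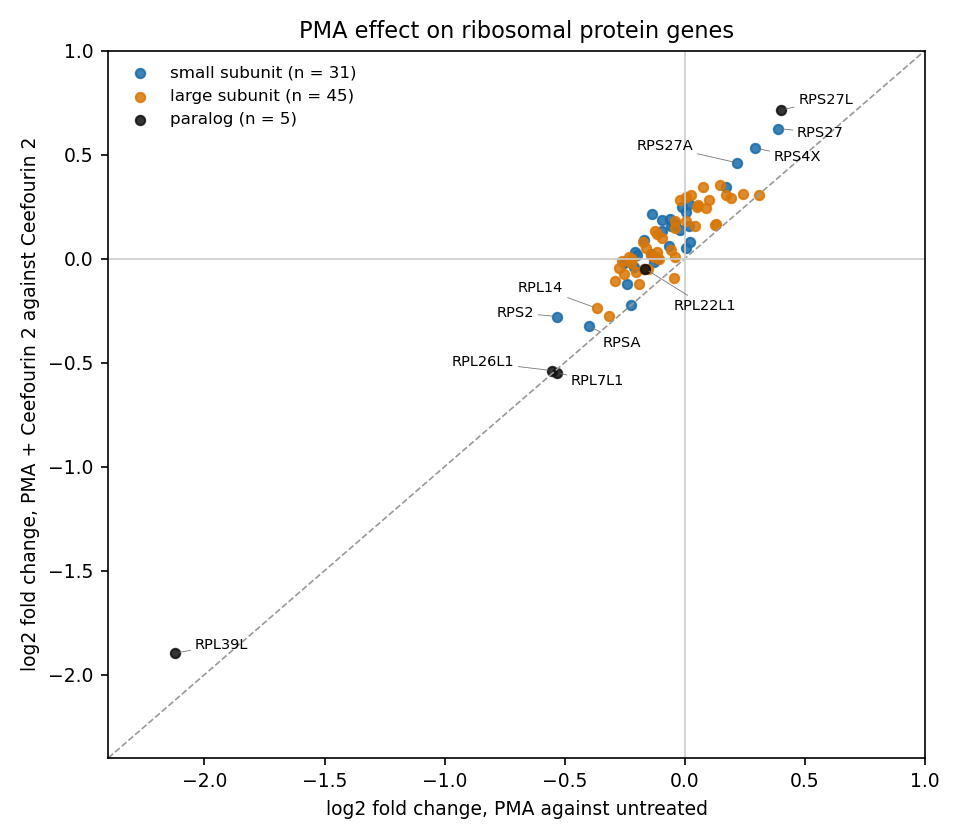
Log2 fold change of the 81 tested members after PMA without Ceefourin 2 (x axis, PMA against untreated) and with it (y axis, PMA plus Ceefourin 2 against Ceefourin 2), by class; the dashed line marks equal effects. RPL39L lies at -2.12 and -1.90, apart from the other members, and most core genes lie above the line on this scale of TMM-scaled counts, on which the core median is 0.10 with Ceefourin 2 (turning to -0.19 in TPM) and -0.08 without it (-0.32 in TPM).

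No member changed with Ceefourin 2 in the main test. In PMA cells, PMA plus Ceefourin 2 against PMA, edgeR called 0 of 81 members, where 1.83% of all genes were called. DESeq2 and limma on TPM also called 0, and 2 members had an unadjusted p below 0.05. Of 76 core genes 73 had positive values, where 50.3% of all tested genes did. The core median was 0.12, against 0.00 for all genes. It ran between 0.00 and 0.24 when 1 library was left out, with the lowest values without PMA plus Ceefourin 2 replicate 2 (0.00) and PMA replicate 1 (0.01), and the highest without PMA replicate 2. With the block 3 members rose, where 8.56% of all genes were called (4.74% higher and 3.82% lower). These were RPS27 with a main log2 fold change of 0.31 ± 0.10 (adjusted p = 0.19, and 0.0096 with the block), RPS2 with 0.25 ± 0.14 (0.49, and 0.014) and RPS3 with 0.19 ± 0.16 (0.69, and 0.047). RPL39L had the largest value, 0.51 ± 0.19, and was called in neither fit (adjusted p = 0.28, and 0.095 with the block).

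In cells without PMA, Ceefourin 2 against untreated, edgeR called 0 of 81 members, where 1.68% of all genes were called. DESeq2, limma on TPM and the block called 0 as well, and 0 had an unadjusted p below 0.05. The core median was -0.06, and 60 of 76 core genes had negative values, where 8790 of 17314 tested genes did. But the core median was 0.08 without untreated replicate 2 and 0.02 without Ceefourin 2 replicate 1. The largest values were those of RPL39L (0.28 ± 0.17, adjusted p = 0.54), with 5.94 and 6.11 CPM in Ceefourin 2 cells, against 4.61 and 5.29 CPM in untreated cells, and of RPL34 (-0.23 ± 0.11, adjusted p = 0.44). The RPL39L libraries did not overlap, yet the difference did not pass the test.

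Whether the PMA effect differed with Ceefourin 2 was tested by the interaction term. It called 0 of 81 members, where 0.0116% of all genes were called, and 0 members had an unadjusted p below 0.05. DESeq2, limma on TPM and the block also called 0. The term was positive in 74 of 76 core genes, where it was positive in 50% of all tested genes. Its core median was 0.18. It was 0.03 without untreated replicate 2, 0.07 without PMA plus Ceefourin 2 replicate 2, 0.08 without PMA replicate 1 and 0.10 without Ceefourin 2 replicate 1, and up to 0.29 without PMA replicate 2. The largest were RPS3A (0.35 ± 0.27, adjusted p = 0.96) and RPS27L (0.31 ± 0.15, adjusted p = 0.78). So members called in 1 of the PMA comparisons and not in the other are not shown to differ between them.

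Of genes outside the cytosolic family that work on ribosomes, larger shares were called. After PMA against untreated, 27.9% of all tested genes rose and 25.7% fell. Of 78 nuclear genes for mitochondrial ribosomal proteins, 4 rose and 56 fell after PMA (76.9%, where 53.6% of all genes were called), with a median log2 fold change of -0.51, against -0.08 for the cytosolic core. With Ceefourin 2 in both arms 5 rose and 55 fell, where 28.0% of all genes rose and 25.6% fell. The median was -0.50, against 0.10 for the cytosolic core. Of 24 assembly and export factors 2 rose and 18 fell after PMA, among them the importins IPO5 (-1.24 ± 0.08) and IPO7 (-0.55 ± 0.07), which carry ribosomal proteins into the nucleus, and the kinase RIOK1 (-1.22 ± 0.10), while EFL1, a GTPase of late 60S maturation, rose (1.37 ± 0.10). Of 29 subunits and factors of RNA polymerases I and III, which transcribe ribosomal RNA, 3 rose and 16 fell, with POLR1E at -1.12 ± 0.12 and POLR3B at -0.96 ± 0.10.

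**Figure D5:**
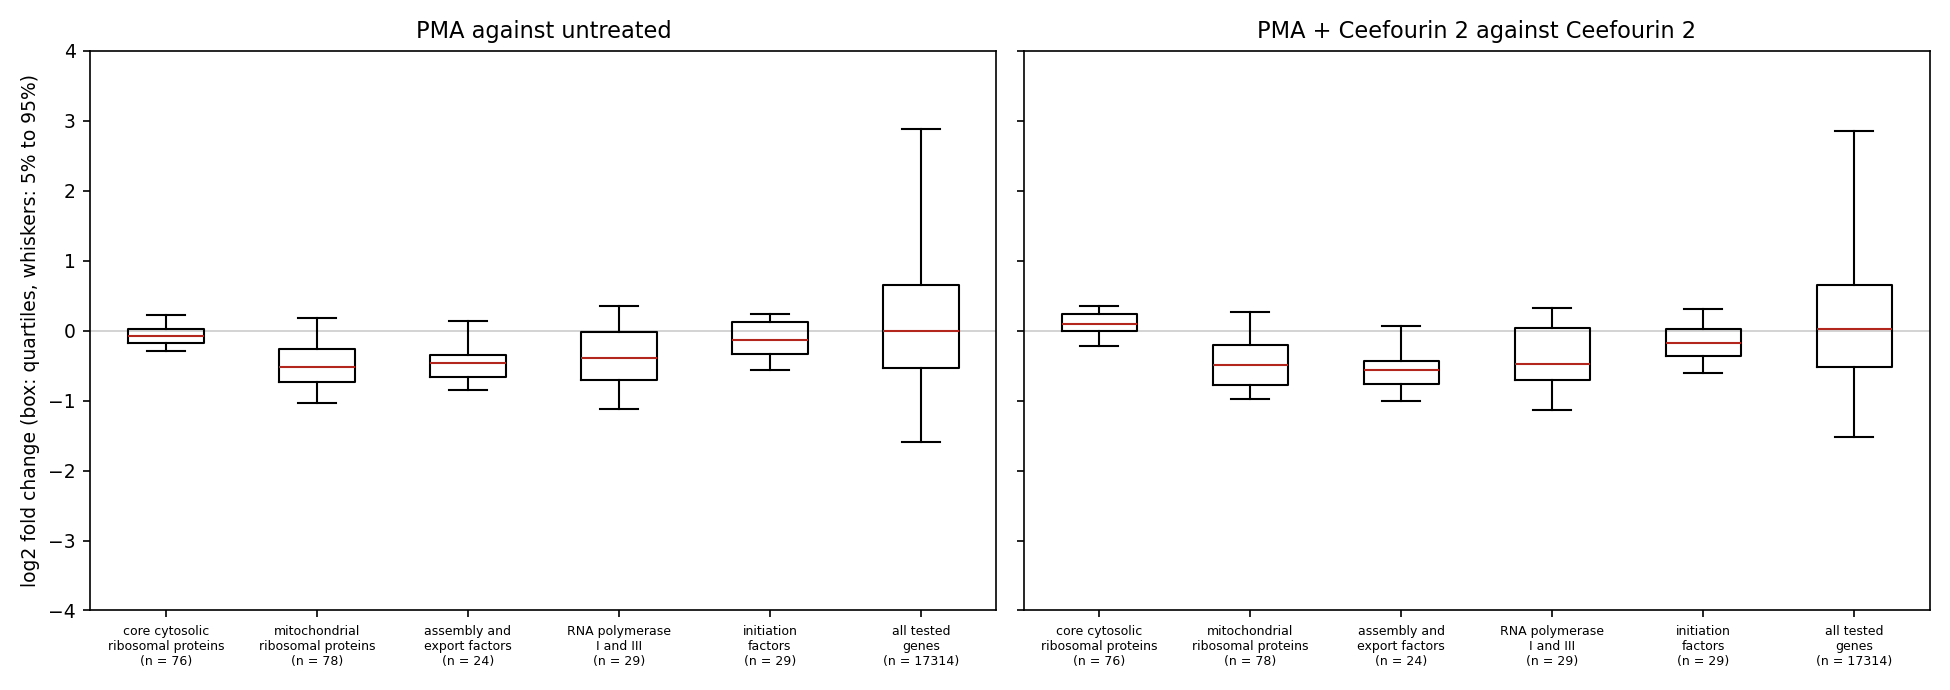
Log2 fold changes (edgeR, TMM-scaled) after PMA against untreated cells (left) and after PMA plus Ceefourin 2 against Ceefourin 2 (right) of core cytosolic ribosomal proteins, mitochondrial ribosomal proteins, assembly and export factors, RNA polymerase I and III genes, initiation factors and all tested genes; boxes span the quartiles with the median in red, and whiskers the 5% to 95% range. The core median is -0.08 and 0.10 (turning to -0.19 in TPM on the right), against -0.51 and -0.50 for the mitochondrial ribosomal proteins.

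Genes of translation control were mixed after PMA, in a comparison where 53.6% of all genes were called (27.9% higher and 25.7% lower). Of 18 elongation factors and other TOP mRNAs, 2 rose and 3 fell (27.8%). TPT1, whose mRNA carries a TOP motif, had 3105 and 3564 CPM in PMA cells, against 1392 and 1553 CPM in untreated cells (1.18 ± 0.11, adjusted p = 9e-05), and NAP1L1 rose by 0.54 (SE 0.11). NPM1, a nucleolar chaperone, had 1002 and 999 CPM, against 2028 and 2005 CPM in untreated cells (-1.01 ± 0.08, adjusted p = 3.2e-05), and HNRNPA1 fell by 0.82 (SE 0.11). Of 29 initiation factors 1 rose and 12 fell (44.8%), with EIF2B3 at -1.03 and EIF2B2 at 0.50. Of 17 listed genes of mTORC1 and TOP control 4 rose and 6 fell (58.8%), with the translation repressor EIF4EBP1 at -1.55 ± 0.19 and RPS6KA3 at 0.66 ± 0.07. Of 18 genes of ribosome rescue and quality control 3 rose (TCF25 0.68, PELO 0.59) and 5 fell (USP10 -0.49, ABCE1 -0.47), 44.4% of the list. Of 14 targets of p53, 6 rose and 4 fell (71.4%), with CDKN1A at 5.08 ± 0.15. Of 4 ribosomal proteins outside the symbol rule, none was called in edgeR's test at an adjusted p below 0.05, 1 had an unadjusted p below 0.05, and 1 rose (FAU) and 1 fell (RACK1) with the block. RACK1 had a main log2 fold change of -0.31 ± 0.13 and FAU of 0.27 ± 0.13.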

How the data were processed

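Polyadenylated RNA was sequenced from both ends with a strand-marking kit, per the labels' protocols. Per the submitters' processing notes, reads were processed with STAR 2.7 and RSEM 1.3.1 on hg38; the sources used here name no annotation release. The deposited expected counts, estimated by the authors per gene and not normalized, were rounded to whole numbers. The deposited TPM values were used for levels, shares and ratios. At a tolerance of 1e-06, expected counts of 59 of the 83 members were not whole in all 8 libraries, and 1144 ribosomal protein pseudogene rows took between 0.845% and 1.24% of TPM, so reads shared between copies limit each member.

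The fit was made in R 4.3.3 with edgeR 4.0.16 (filterByExpr, TMM, quasi-likelihood test) over 17314 genes and all 8 libraries, with a mean per group and 4 residual degrees of freedom. p-values were adjusted by Benjamini-Hochberg over all tested genes, with calls below 0.05; SE belongs to the log2 fold change. Alternatives were DESeq2 1.42.0, limma 3.58.1 on log2(TPM + 1) and log2(TPM + 0.1), which understates changes of low genes, other scalings and filters, each library left out, and a replicate block. Library sizes without TMM, and leaving out both libraries of high mitochondrial share, were chosen after seeing the data. TPM-scale fold changes in the text use the pseudocount of 1. Deviations of same-numbered replicates correlated at 0.14 to 0.36 in all 6 pairs of groups over all genes, and at 0.26 to 0.74 over the core genes, so the numbers were taken to pair the libraries; this comes from the data, not from the labels. Replicates of a group differed beyond sampling noise (chi-square over its degrees of freedom between 45.1 and 94.8). Data were simulated for PMA against untreated over 16805 genes, of which 200 were changed. The fit recovered 24% of 1.5-fold, 91% of 2-fold and 100% of 4-fold changes, and 1.9% of 156 calls were false. The simulation gave all genes the same spread and no shift between replicate numbers. It also changed far fewer genes than were called here (53.6% of those tested), so its rates do not carry over to this comparison.

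Members and lists were chosen with earlier results of these data known. Genes were named by rule from the 10 largest changes per comparison, the 3 most and 3 least abundant core genes, and paralogs with their partners. The rule also held RPSA, RPLP0, RPLP1, RPLP2, RPS6, RPL5, RPL11, and up to 4 genes of smallest p from each other list. Only some of the 10 largest changes are given for the 2 Ceefourin 2 comparisons and the interaction. The core genes RPL34, RPL26 and RPL37, called with Ceefourin 2, are outside its 10 largest changes and were named after their values were seen. Values of 2 genes of these and the marker lists are not reported here. Start-site windows come from RefSeq (GRCh38.p14) and gene positions from GENCODE, by identifier.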

Additional observations from a re-analysis of the deposited data

How the results depend on the processing

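With 2 libraries per group, small shared shifts of highly expressed genes depend on single libraries and on scaling. With RLE factors, TMM factors from other genes, mitochondrially encoded genes left out, a filter of 1 CPM in 2 libraries or DESeq2, the counts of called members stayed within 1.5 times those of the main fit. For PMA against untreated 8 members were called (median -0.08), where 53.6% of all tested genes were. Without a filter on low counts 16 were called, where 32.8% of all genes were, and with the replicate block 38, where 64.4% were. On log2(TPM + 1) and log2(TPM + 0.1) limma called 31 and 41, all lower, where 33.7% and 33.9% of all genes were lower. With library sizes alone 24 were called, all lower, where 34.3% were lower. The median was -0.32 on both TPM scales and -0.26 with library sizes alone, settings that moved the median of all genes to -0.14, -0.22 and -0.19. Leaving out 1 library gave medians of -0.20 to 0.04, and leaving out both libraries of high mitochondrial share gave 0.03. For PMA plus Ceefourin 2 against Ceefourin 2, 11 members were higher and 3 lower (median 0.10), where 28.0% and 25.6% of all genes were. With the block 40 were called, where 63.6% of all genes were. The split was 2 and 16 on both TPM scales. There 17.4% and 17.8% of all genes were higher, and 34.6% and 34.9% lower. With library sizes alone it was 2 and 9, where 21.7% of all genes were higher and 34.3% lower. The median was -0.19 on both TPM scales and -0.11 with library sizes alone. Leaving out 1 library gave 6 to 13 calls and medians of -0.01 to 0.19. For PMA plus Ceefourin 2 against PMA the block called 3, where 8.56% of all genes were called. Medians ran from 0.00 to 0.24 with 1 library left out. For Ceefourin 2 against untreated they ran from -0.15 to 0.078, the highest without untreated replicate 2. The 2 Ceefourin 2 comparisons and the interaction had 0 calls with any 1 library left out. The median of the interaction ran from 0.03 to 0.29 in the same way. The block changed no other call count by over 1.5 times.

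The mean member share in PMA plus Ceefourin 2, PMA, Ceefourin 2 and untreated cells was 7.70%, 7.24%, 8.38% and 8.68% of expected counts. It was 22.1%, 20.7%, 23.4% and 24.0% of TPM without mitochondrially encoded genes, and 23.3%, 21.9%, 24.8% and 25.4% of TPM of nuclear coding genes. Single libraries ran between 18.5% and 20.9%, 16.8% and 20.0%, 21.6% and 22.7%, and 21.9% and 23.3%, in that order of groups.

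Signs of single genes turned for RPL37 after PMA with Ceefourin 2 (0.00 on both TPM scales), RPLP1 after PMA (-0.03 on both) and RPLP2 (-0.11 on both, -0.05 with library sizes alone). They also turned for RPS6 after PMA without PMA replicate 1 (0.00, range -0.36 to 0.00 with 1 library left out) or without both libraries of high mitochondrial share (0.01), and for RPL22L1 after PMA with Ceefourin 2 without PMA plus Ceefourin 2 replicate 1 (0.09), without that and PMA replicate 1 (0.09) and without Ceefourin 2 replicate 2 (0.03). The cause was not tested.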
